A study of Mus musculus with 16 samples.

Results

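Expression of 7 genes of forebrain glutamatergic neurons (Slc17a7, Slc17a6, Tbr1, Neurod6, Emx1, Eomes and Fezf2) was followed in GABAergic cells sorted from the brains of newborn mice. The 7 genes were listed by name, with earlier results of these data known, and every probe other than a control that carried the name of a member or an older synonym was taken. They were measured by 8 of the 41174 probes on the array, which carry 28655 gene names in all. Slc17a6 had 2 probes, named A_51_P174996 and A_52_P8197, and the other members had 1 each; Fezf2 is listed on the array under its older name Zfp312. All 8 probes passed the filter on low signal, which left 39227 probes for testing.

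Many glutamatergic neurons of the forebrain arise from the pallium. Glutamate is loaded into synaptic vesicles through the transporters encoded by Slc17a7 (VGLUT1, typical of cortex and hippocampus) and Slc17a6 (VGLUT2, typical of thalamus, midbrain and hindbrain). The identity of pallial glutamatergic neurons is built by a series of transcription factors. The homeobox gene Emx1 acts in cells of the pallium and the T-box gene Eomes (Tbr2) in intermediate progenitors. The T-box gene Tbr1, the basic helix-loop-helix gene Neurod6 and the zinc finger gene Fezf2 act in young projection neurons. Most GABAergic neurons of the forebrain come from the subpallium under Dlx factors. Of these 7 genes, Emx1 and Eomes mark pallial cells and progenitors rather than glutamatergic neurons alone.

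GABAergic cells were sorted by eGFP fluorescence at postnatal day 1 from GAD67-eGFP mice on a C57Bl/6 background, so every group carries the same reporter and none was treated. The reporter marks cells by the gene Gad1, which encodes the GABA-synthesizing enzyme GAD67, and any cell with enough eGFP could enter the sort. Undissected brain of 4 mice gave the whole-brain group (4 arrays). Cells of the cerebellum, striatum, cortex and olfactory bulb came from 6 mice (3 arrays a region), and the labels do not say whether regions share animals. P-values measure only the spread between these arrays. All 16 arrays compared sorted cells (Cy5) with 1 common reference (Cy3), amplified cDNA of unsorted whole brain from 4 mice of the same age. Dyes were not swapped, so a gene's mean ratio to the reference can hold a dye effect, which is shared by all groups, and the spread of the reference is not part of the test. Values below are log2 ratios of sorted cells to reference: 0 is an equal signal and -1 is a signal 2-fold lower. A difference was called at a Benjamini-Hochberg adjusted p below 0.05 in limma's moderated test over all tested probes.

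The median signal ran from 150.9 to 717.5 in the sorted channel and from 92 to 254 in the reference channel, and 78.1 to 96.6% and 72.1 to 90.7% of probes were well above background. Arrays of 1 group correlated at 0.934 to 0.992 over all tested probes. The GABAergic label was checked against 10 genes of GABA identity: all 10 were higher than in the reference in olfactory bulb, cortex and striatum, and 7 were higher in cerebellum (1 lower) and in whole brain (3 lower). Whole brain goes against its label in Gad1 itself, whose brighter probe was -1.51 (4 arrays, -1.61 to -1.39) and lower than the reference, while it was 0.81, 0.79, 0.91 and 0.84 in olfactory bulb, cortex, striatum and cerebellum; its other probe was -1.32 in whole brain. Gad2, the other GABA-synthesizing enzyme, was -0.28 there on its brighter probe (0.20 with median centring) and 1.38 on its other probe, whereas Slc32a1 (1.21) and Dlx1 (1.71) were higher. The 4 whole-brain arrays were also scanned on another day than the 12 regional arrays, so the scan day and the whole-brain group cannot be told apart. Because of both facts, results for the dissected regions stand on their own below, and whole brain is set beside them.

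The upstream sequences of the members that results below turn on are shown first, as the 250 bases before each start annotated by RefSeq on build GRCm38.p6, 5′ to 3′ on the gene's strand, with every match to the E-box CANNTG in capitals. The E-box is the site bound by basic helix-loop-helix factors such as Neurod6. Slc17a6 is shown because its probes differed and RefSeq gives it 2 starts (chr7:51621580-51621829 and chr7:51624387-51624636, plus strand), and Neurod6 (chr6:55681264-55681513, minus strand) and Eomes (chr9:118477939-118478188, plus strand) because they were highest in cerebellum.
Slc17a6 first start: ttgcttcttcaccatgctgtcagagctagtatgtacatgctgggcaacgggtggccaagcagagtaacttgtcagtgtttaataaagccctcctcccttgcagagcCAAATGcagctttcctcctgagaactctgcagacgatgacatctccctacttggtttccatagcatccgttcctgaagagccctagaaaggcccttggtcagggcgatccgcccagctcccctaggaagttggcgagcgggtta
Slc17a6 second start: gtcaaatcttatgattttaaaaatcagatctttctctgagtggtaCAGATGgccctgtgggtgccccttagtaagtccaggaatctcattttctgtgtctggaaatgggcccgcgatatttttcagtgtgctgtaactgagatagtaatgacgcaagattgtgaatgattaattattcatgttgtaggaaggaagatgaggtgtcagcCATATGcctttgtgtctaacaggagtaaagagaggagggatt
Neurod6: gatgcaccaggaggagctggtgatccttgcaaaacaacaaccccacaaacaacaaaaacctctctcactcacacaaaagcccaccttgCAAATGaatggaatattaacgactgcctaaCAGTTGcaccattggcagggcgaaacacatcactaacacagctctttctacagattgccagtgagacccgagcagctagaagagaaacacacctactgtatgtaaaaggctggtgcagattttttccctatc
Eomes: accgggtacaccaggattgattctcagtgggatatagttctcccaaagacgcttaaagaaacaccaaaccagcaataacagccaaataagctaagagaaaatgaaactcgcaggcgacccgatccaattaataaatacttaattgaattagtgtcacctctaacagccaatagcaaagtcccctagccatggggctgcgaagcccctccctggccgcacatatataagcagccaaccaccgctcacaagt
CANNTG occurred 1 time before the first Slc17a6 start, 2 times before the second and 2 times before Neurod6, and it was not found before Eomes; 66.2% of the 32851 RefSeq promoter windows of this length hold it. The narrower form CAGATG, searched on both strands and itself a CANNTG, was found only before the second Slc17a6 start among the 8 windows of the 7 genes, against 14.4% of all windows. The T-box core AGGTGT, searched on both strands, occurred before Neurod6 and the second Slc17a6 start, against 11.8% of all windows. A match describes these letters only. Which transcript or exon each probe reads was not analysed here.

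**Figure D1:**
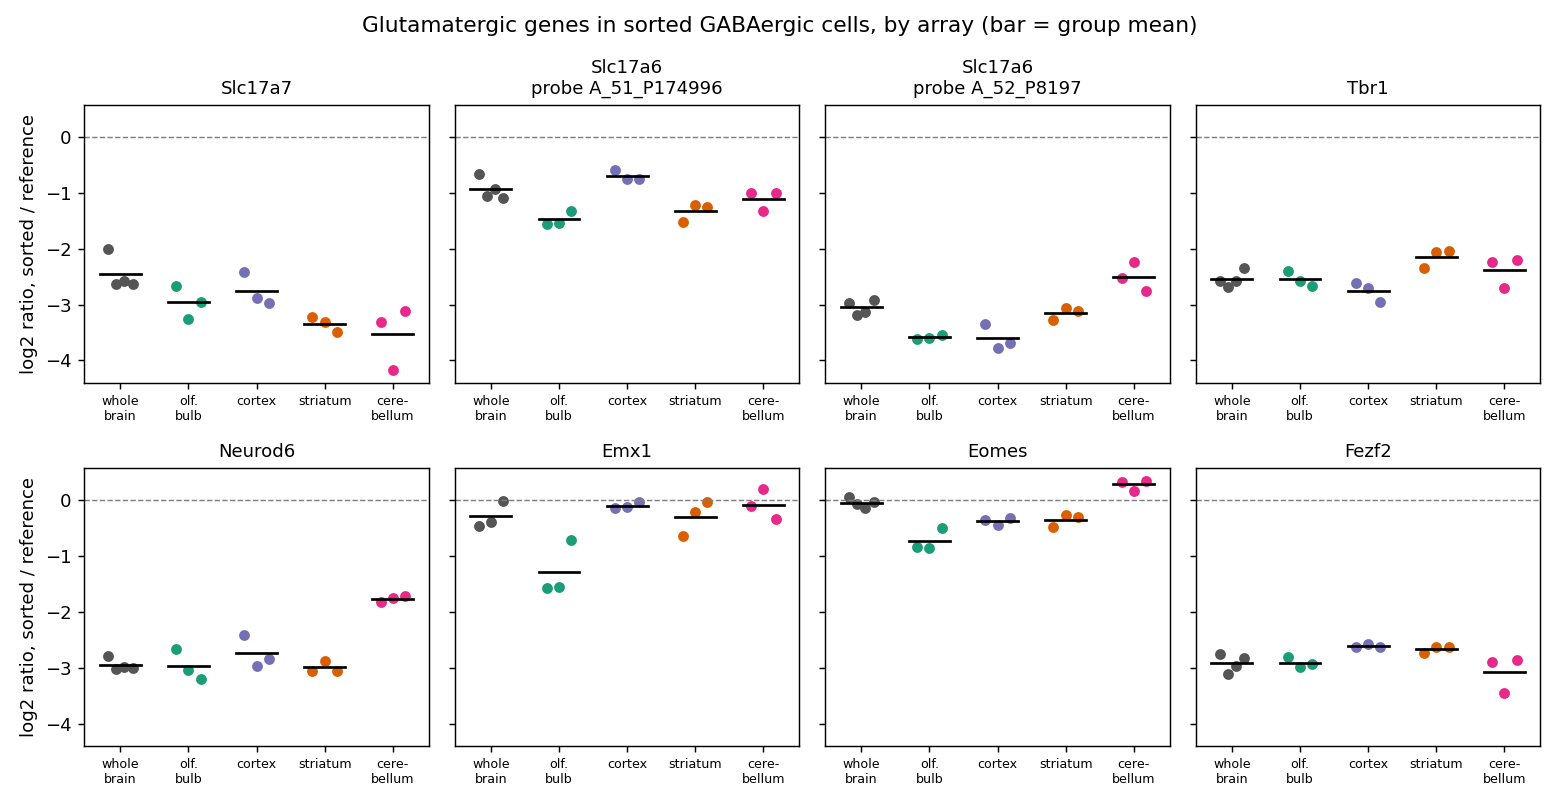
Log2 ratio of sorted GABAergic cells to the total brain reference (vertical axis) for each of the 8 probes, 1 panel a probe; points are arrays (4 of whole brain, 3 of each region), bars are group means and the dashed line is an equal signal. Slc17a7, Tbr1, Neurod6, Fezf2 and the second Slc17a6 probe lie at or below -1.72 on every array, whereas Emx1 and Eomes lie between -0.65 and 0.35 outside the olfactory bulb.

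Against total brain, most of the glutamatergic genes were lower in cells sorted from every region, and the size of the deficit differed by gene. Slc17a7, Tbr1, Neurod6 and Fezf2 had group means from -3.53 to -1.77, as against -1.28 to 0.28 for Emx1 and Eomes. Slc17a6 depended on the probe, with means from -1.47 to -0.70 on the first and from -3.60 to -2.50 on the second. With the brighter probe standing for Slc17a6, all 7 members were lower in olfactory bulb, 6 both in cortex and in striatum, and 5 both in cerebellum and in whole brain. Calls of this kind were common on these arrays: 67.4% of all probes were called in either direction in olfactory bulb, 68.3% in cortex, 67.4% in striatum, 75.2% in cerebellum and 79.3% in whole brain, and 32.8, 33.6, 33.3, 36.4 and 38.1% were called lower. In the same order of groups, 6, 4, 5, 5 and 4 of the 7 were at least 2-fold lower, against 8.16, 7.97, 6.2, 8.95 and 14.7% of all probes. The median over the members was -2.55, -2.61, -2.15, -1.77 and -2.46 in the same order of groups, where the median of all probes lay between 0.01 and 0.04. In bulk RNA of this kind, fewer glutamatergic cells and less of these transcripts per cell cannot be told apart.

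Slc17a7, the vesicular transporter of cortical projection neurons, had log2 ratios of -2.66, -3.26 and -2.95 in olfactory bulb, -2.42, -2.88 and -2.98 in cortex, -3.22, -3.31 and -3.49 in striatum, and -3.31, -4.17 and -3.11 in cerebellum. In whole brain they were -2.00, -2.64, -2.57 and -2.63. All 16 arrays lay at or below -2.00. The mean was 6.78-fold lower than the reference in cortex (-2.76 ± 0.30, SD, n = 3; limma adjusted p = 7.34e-12) and 11.6-fold lower in cerebellum (-3.53 ± 0.56, SD, n = 3; limma adjusted p = 1.97e-13). These folds rest on a dim sorted channel: the sorted signal was 1.31 to 2.91 times the local background, and it was well above background on 12 of 16 arrays (1 of 3 in olfactory bulb, 1 of 3 in cortex, and all arrays of the other groups), whereas the reference was well above background on all 16. Over 13 alternatives the cerebellar value ran from -5.31 to -3.21.

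Slc17a6, the vesicular transporter of subcortical glutamatergic neurons, was lower in all groups by both probes, but the probes differed widely in size. On probe A_51_P174996 the ratios were -1.55, -1.54 and -1.32 in olfactory bulb, -0.60, -0.75 and -0.76 in cortex, -1.52, -1.22 and -1.26 in striatum, -1.01, -1.33 and -1.01 in cerebellum, and -0.67, -1.05, -0.93 and -1.09 in whole brain. On probe A_52_P8197 they were -3.62, -3.59 and -3.54 in olfactory bulb, -3.35, -3.77 and -3.68 in cortex, -3.27, -3.06 and -3.11 in striatum, -2.52, -2.23 and -2.76 in cerebellum, and -2.97, -3.18, -3.13 and -2.92 in whole brain. The lowest array of the first probe lies above the highest array of the second. The second probe gave 12.1-fold lower signal than the reference in cortex (-3.60 ± 0.22, SD, n = 3; limma adjusted p = 5.01e-17), where the first gave 1.62-fold (-0.70 ± 0.09, SD, n = 3; limma adjusted p = 4.19e-07). The probes also ordered the regions differently: cortex had the smallest deficit on the first probe and shared the deepest with olfactory bulb on the second. Both probes carry an accession of the same gene on the array and were well above background in both channels on all 16 arrays. The sorted signal of the second probe was dim in cortex, at 2.14 to 3.11 times the local background, and in olfactory bulb, at 2.62 to 4.04 times. Each statement on Slc17a6 below names its probe.

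Among the factors of postmitotic projection neurons, Tbr1, which specifies deep-layer and preplate neurons, had ratios of -2.40, -2.58 and -2.66 in olfactory bulb, -2.62, -2.70 and -2.95 in cortex, -2.34, -2.06 and -2.05 in striatum, -2.23, -2.71 and -2.21 in cerebellum, and -2.57, -2.69, -2.57 and -2.35 in whole brain. Its group means stayed between -2.76 in cortex (6.77-fold lower; limma adjusted p = 3.64e-15) and -2.15 in striatum (4.45-fold lower; limma adjusted p = 2.22e-13). Fezf2, which directs subcerebral projection neurons, was similarly even. It had -2.80, -2.98 and -2.94 in olfactory bulb, -2.63, -2.57 and -2.62 in cortex, -2.73, -2.62 and -2.63 in striatum, -2.90, -3.46 and -2.87 in cerebellum, and -2.76, -3.11, -2.96 and -2.83 in whole brain. No array of Fezf2 was above -2.57, and its means ran from 6.09-fold lower in cortex to 8.43-fold lower in cerebellum. The sorted signal of both genes was well above background on all 16 arrays. It was only 1.9 to 10.9 times the local background for Tbr1 and 2.01 to 4.96 times for Fezf2, so these folds rest in part on dim signals.

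Neurod6, a factor of maturing pyramidal neurons, had like ratios in the forebrain regions and was less reduced in cerebellum. Its ratios were -2.67, -3.04 and -3.20 in olfactory bulb, -2.41, -2.97 and -2.85 in cortex, -3.05, -2.88 and -3.05 in striatum, -2.79, -3.03, -2.98 and -3.01 in whole brain, and -1.82, -1.76 and -1.72 in cerebellum. The 3 cerebellar arrays lay above all 13 other arrays. The mean was 7.96-fold below the reference in striatum (-2.99 ± 0.10, SD, n = 3; limma adjusted p = 2.6e-15) and 3.41-fold below it in cerebellum (-1.77 ± 0.05, SD, n = 3; limma adjusted p = 2.39e-12).

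Emx1 and Eomes behaved otherwise. Emx1, a homeobox factor of the pallium, had ratios of -1.58, -1.56 and -0.71 in olfactory bulb, -0.14, -0.13 and -0.04 in cortex, -0.65, -0.21 and -0.03 in striatum, and -0.11, 0.19 and -0.34 in cerebellum. On 3 whole-brain arrays it had -0.47, -0.39 and -0.01. The spot of whole-brain replicate 2 was marked as non-uniform by the scanner software and left out. All olfactory bulb arrays were below all others. The gene was called lower only there (-1.28 ± 0.50, SD, n = 3; 2.43-fold; limma adjusted p = 1.85e-07); the adjusted p was 0.532 in cortex, 0.0725 in striatum, 0.583 in cerebellum and 0.0707 in whole brain. In striatum it was called lower with scaling between arrays (-0.37) and without striatum replicate 3 (-0.43), and in whole brain without replicate 4 (-0.43).

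Eomes, the factor of intermediate progenitors, had ratios of -0.84, -0.85 and -0.50 in olfactory bulb, -0.35, -0.45 and -0.32 in cortex, -0.49, -0.27 and -0.30 in striatum, 0.06, -0.07, -0.15 and -0.04 in whole brain, and 0.32, 0.17 and 0.35 in cerebellum. The olfactory bulb was lowest and the cerebellum highest, and neither overlapped another group. It was the only member called above the reference in any group: 1.21-fold higher in cerebellum (0.28 ± 0.10, SD, n = 3; limma adjusted p = 0.00176; 38.8% of all probes were called higher there) and 1.66-fold lower in olfactory bulb (-0.73 ± 0.20, SD, n = 3; limma adjusted p = 2.36e-08). The small values of Eomes depend on the centring. With the median of each array set to 0 in place of loess, whole brain moved from -0.05 to 0.48, and cortex and striatum, called lower, moved to -0.07 and -0.01 and lost the call.

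**Figure D2:**
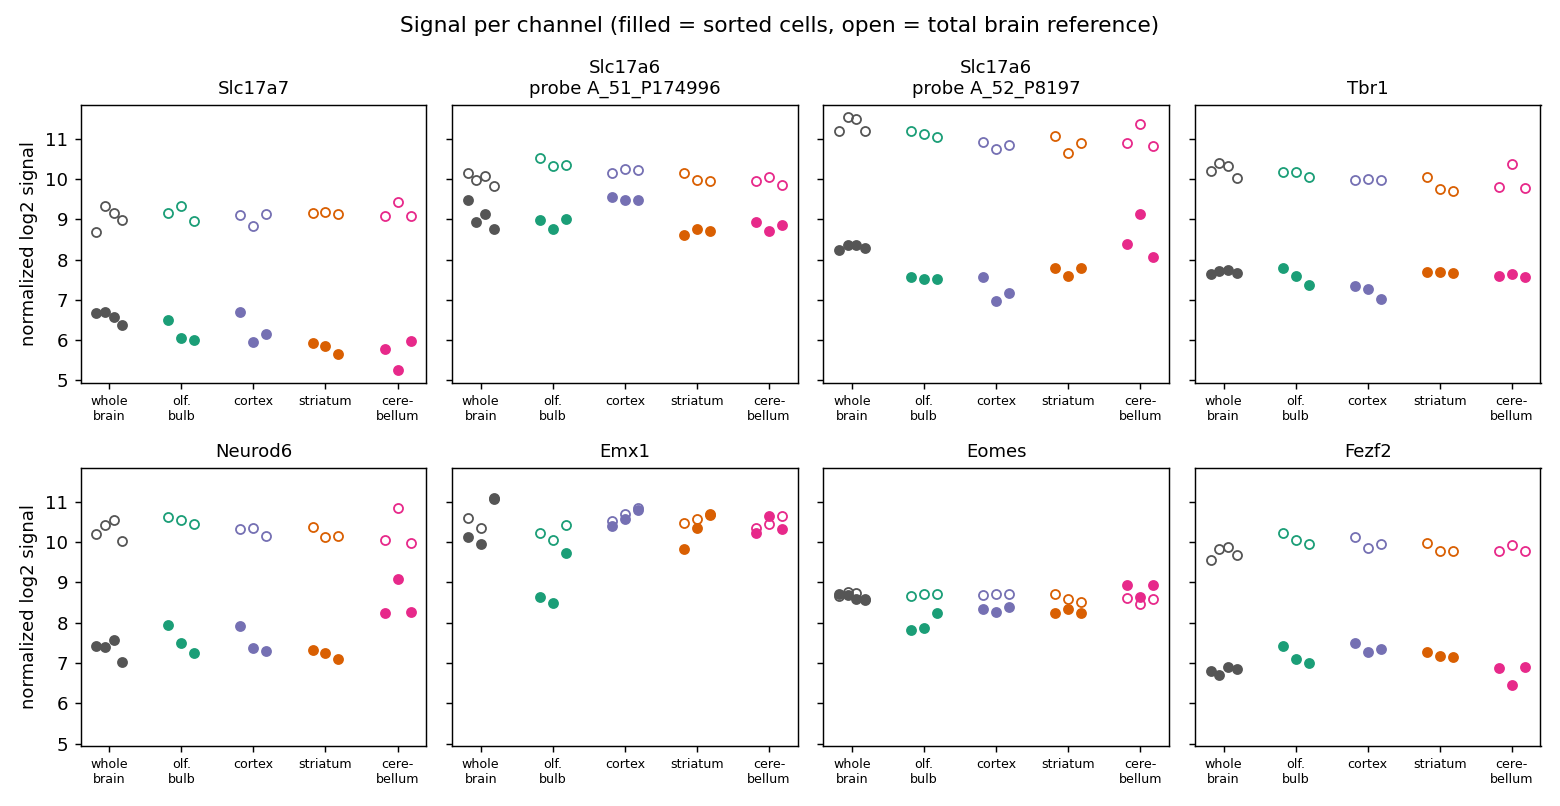
Normalized log2 signal (vertical axis) of each probe in the sorted channel (filled points) and in the total brain reference (open points) on each array, by group. For Eomes the reference stays within 8.47 and 8.76 while the sorted signal runs from 7.83 to 8.94; for Tbr1 both channels vary by a like amount (SD 0.22 and 0.20).

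The signals of the 2 channels show where the differences come from. The reference is 1 RNA, and for the 8 probes its SD over the arrays was 0.08 (Eomes) to 0.26 (the second Slc17a6 probe). The sorted signal of Neurod6 was 8.53 ± 0.48 (SD, n = 3) in cerebellum against 7.23 ± 0.11 (SD, n = 3) in striatum. That of Emx1 was 8.96 ± 0.67 (SD, n = 3) in olfactory bulb against 10.6 ± 0.21 (SD, n = 3) in cortex and 10.4 ± 0.22 (SD, n = 3) in cerebellum. For Tbr1 the sorted signal stayed between 7.22 in cortex and 7.69 in whole brain.

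Other gene groups moved with this deficit. Of the pan-neuronal list, 7 of 7 tested genes were lower in whole brain, 5 of 7 in olfactory bulb, cortex and striatum (2 higher in each of the first 2 regions), and 6 of 7 in cerebellum, with list medians per array from -2.34 to -1.14; Gap43, a growth cone protein, was -3.98 in cortex and -3.01 in cerebellum. Of 8 astrocyte and radial glia genes, 7 were lower in each of the 5 groups, with medians per array from -2.00 to -0.97. Lower counts in olfactory bulb, cortex, striatum, cerebellum and whole brain were 4, 5, 5, 5 and 5 of 6 for oligodendrocyte genes, 7, 5, 5, 4 and 5 of 8 for microglia genes, 4, 4, 4, 5 and 4 of 6 for endothelial genes, and 2, 2, 3, 2 and 1 of 3 for erythroid genes. Higher counts in the same order were 0, 2, 2, 2 and 3 for microglia genes and 0, 1, 0, 0 and 2 for endothelial genes, and 1 oligodendrocyte gene was higher in each group. With median centring, 4 microglia genes were higher and 1 lower in whole brain. Most genes of the neuronal, astrocyte and oligodendrocyte lists were thus lower too, and what part these lists have in the members' ratios was not tested.

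**Figure D3:**
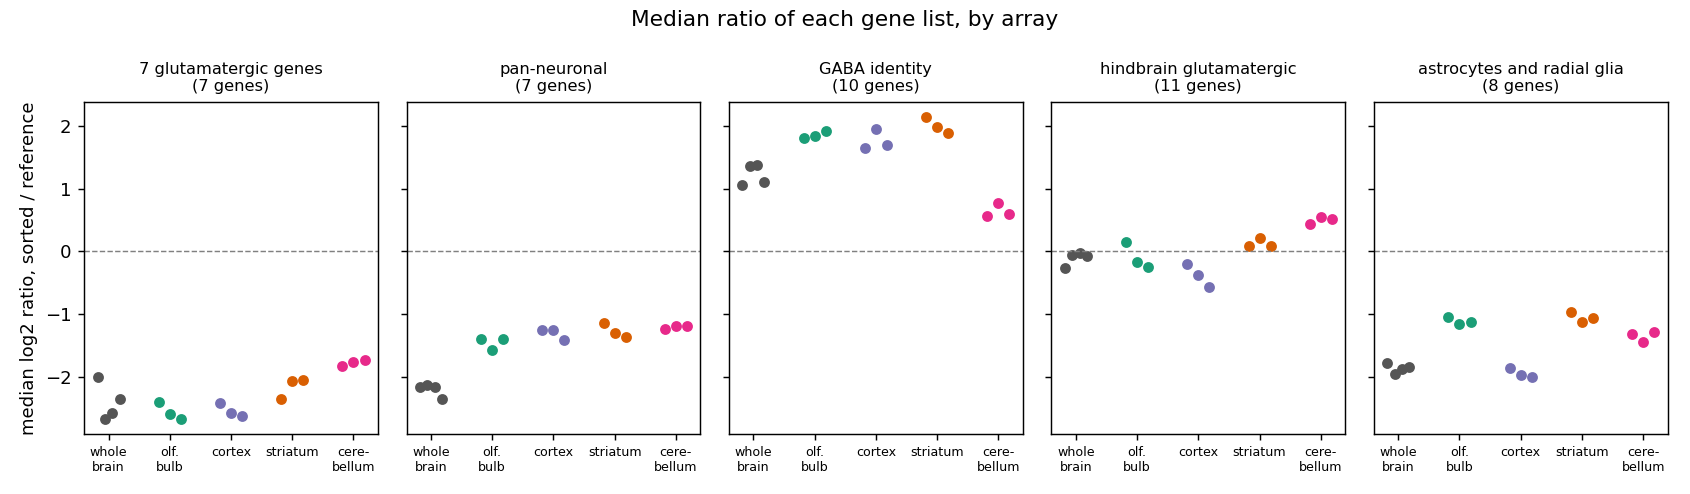
Median log2 ratio to the reference (vertical axis) of 5 gene lists on each array, by group; each point is 1 array. The 7 glutamatergic genes, the pan-neuronal genes and the astrocyte genes lie below 0 on all arrays, the GABA identity genes lie above 0 on all arrays and are lowest in cerebellum (0.56 to 0.77).

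The rest of the glutamatergic programme followed the members only in part. Of 6 genes of vesicular glutamate transport and glutamate supply, 4 were lower and 2 higher in cortex, and 3 lower and 2 higher in cerebellum: Slc17a8, the third vesicular transporter, was lower in all groups (-0.59 in cortex). The lower call of Slc17a8 in olfactory bulb (-0.41) turned to 0.03 with median centring. Of 24 factors of postmitotic pallial neurons, 17, 15, 14, 16 and 18 were lower in olfactory bulb, cortex, striatum, cerebellum and whole brain, and 3, 4, 6, 6 and 4 were higher. Bcl11b (Ctip2), a factor shared with striatal GABAergic neurons, was 0.33 in cortex and 1.01 in striatum but -2.03 in cerebellum. Among 8 tested pallial progenitor factors, 5 were higher and 3 lower in cortex, and Lhx2, a LIM homeobox factor, was among the lower ones (-2.12).

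Between the 4 regions, every member differed by the F test, but most differences were small. The 7 members, by their brighter probes, were all called, as were 55.9% of all probes. The region means spanned 0.77 for Slc17a7 (adjusted p = 0.0235), 0.77 for Slc17a6 on its first probe (adjusted p = 0.000192), 1.1 on its second (adjusted p = 2.71e-06), 0.61 for Tbr1 (adjusted p = 0.00526) and 0.47 for Fezf2 (adjusted p = 0.0118), all by limma's F test. The wider spans were those of Neurod6 (1.22; limma adjusted p = 1.49e-06), Emx1 (1.19; limma adjusted p = 0.000221) and Eomes (1.01; limma adjusted p = 2.63e-06); 3.82% of all probes were called with a span of at least 1. Slc17a7 lost its F test call with a smaller background offset of 16 (span 0.59, adjusted p = 0.105) and without cortex replicate 1 (span 0.60, adjusted p = 0.0737).

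Cerebellum differed from the mean of the 3 forebrain regions in both directions. Neurod6 was 2.19-fold higher relative to the reference (1.13 ± 0.11, SE; limma adjusted p = 2.15e-07), Eomes 1.70-fold (0.76 ± 0.08, SE; limma adjusted p = 9.98e-07) and Slc17a6 on its second probe 1.92-fold (0.94 ± 0.10, SE; limma adjusted p = 9.92e-07). For each of these 3 probes the 3 cerebellar arrays lay above the 9 forebrain arrays, which held in one direction or the other for 20.9% of all probes. Emx1 was 1.39-fold higher (0.47 ± 0.17, SE; limma adjusted p = 0.0292) with overlapping arrays. Among single regions, Emx1 was called lower than in cerebellum in olfactory bulb alone (-1.19), and not in cortex (-0.02) or striatum (-0.21). Slc17a7 was 1.43-fold lower (-0.51 ± 0.18, SE; limma adjusted p = 0.032) and Fezf2 1.28-fold lower (-0.35 ± 0.10, SE; limma adjusted p = 0.0107), also with overlap. The sorted signal of Slc17a7 was well above background on 1 of 3 arrays in olfactory bulb and 1 of 3 in cortex, so its fold between regions rests in part on signals near background. Tbr1 (0.10, 95% interval -0.12 to 0.33) and Slc17a6 on its first probe (0.05, 95% interval -0.16 to 0.26) were not called. With the brighter probes, 3 members were called higher and 2 lower, 5 of 7 in all, against 40.5% of all probes.

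The 2 lower calls and that of Emx1 were less stable than the 3 large ones. Cerebellum replicate 2 held the lowest value of Slc17a7 (-4.17) and of Fezf2 (-3.46) and the highest of Emx1 (0.19); without it Slc17a7 was -0.19, Fezf2 -0.16 and Emx1 0.33, none of them called, and 2 members were called in place of 5. Without striatum replicate 1 Slc17a7 (-0.49) and Emx1 (0.41) lost the call and 3 members were left. Slc17a7 also lost it without olfactory bulb replicate 1 (-0.47) or cortex replicate 1 (-0.46), in the sorted channel alone (-0.42) and with a background offset of 16 (-0.32, limma adjusted p = 0.203). Emx1 also lost it without cerebellum replicate 1 (0.49), with the scanner's log ratio (0.50), with an offset of 16 (0.49), in the sorted channel alone (0.45) and with median centring (0.21, limma adjusted p = 0.285). Scaling the spread of the arrays to a common width turned Slc17a7 to 0.18 and Fezf2 to 0.25, the latter then called higher, and brought Tbr1 to 0.60, called higher. Neurod6 stayed between 0.90 and 1.63 and Eomes between 0.61 and 0.90 over 23 alternatives each, and the second Slc17a6 probe between 0.69 and 1.54 over 21, all of them called.

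**Figure D4:**
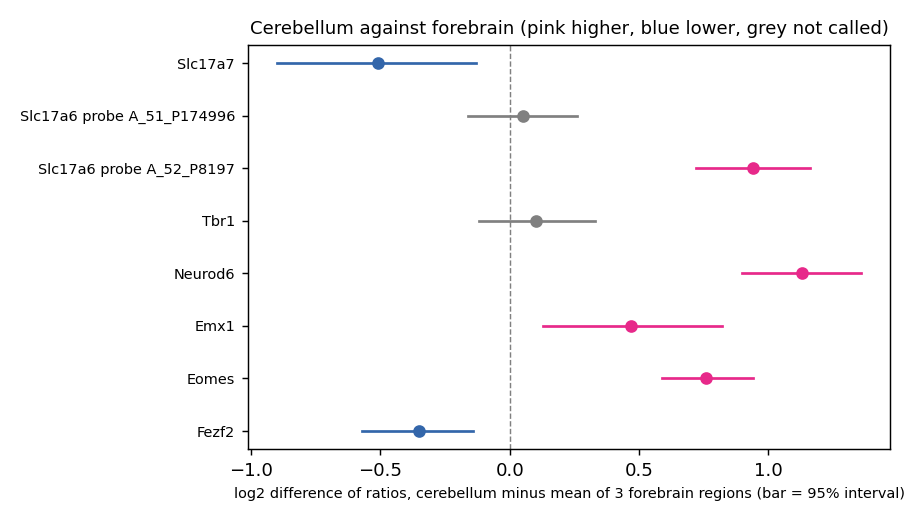
Difference of the log2 ratio between cerebellum (3 arrays) and the mean of olfactory bulb, cortex and striatum (9 arrays) for the 8 probes (horizontal axis), with 95% intervals; pink marks a higher call, blue a lower call and grey no call. Neurod6 (1.13), the second Slc17a6 probe (0.94) and Eomes (0.76) stand to the right, Slc17a7 (-0.51) and Fezf2 (-0.35) to the left.

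The larger differences lay mainly in the sorted channel. In the signals, cerebellum exceeded the forebrain mean by 1.09 for Neurod6, 1.03 for the second Slc17a6 probe and 0.65 for Eomes, of ratio differences of 1.13, 0.94 and 0.76. Slc17a7 was lower by a sorted-channel difference of -0.42 and Fezf2 by -0.50. For Slc17a6 on its first probe the parts were -0.21 in the sorted channel and 0.26 from the reference, which nearly cancelled.

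Wider gene lists show what else separates cerebellar from forebrain cells. Of the 24 postmitotic pallial factors 8 were higher and 9 lower in cerebellum, with a list median of -0.07 against 0.02 for all probes. The higher ones were led by other basic helix-loop-helix genes related to Neurod6: Neurod2 was higher by 2.79 (0.18 in cerebellum against -2.49 in cortex), Nhlh1 by 1.68, Bhlhe22 by 1.68 and Neurod1 by 1.49. The lower ones were led by Bcl11b (-2.30) and Foxp2 (-1.66). With scaling between arrays the split was 10 higher and 8 lower.

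**Figure D5:**
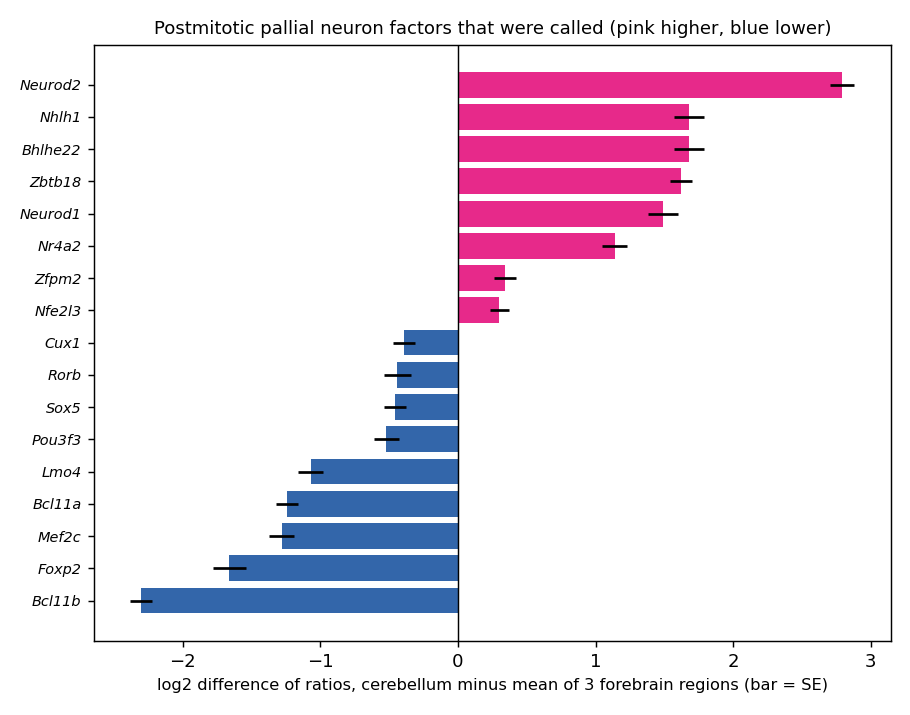
Difference of the log2 ratio between cerebellum and the mean of the 3 forebrain regions (horizontal axis, bars with SE) for those of the 24 postmitotic pallial factors that were called, 8 higher (pink) and 9 lower (blue). The difference ran from -2.30 for Bcl11b to 2.79 for Neurod2.

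In 2 further lists of neuronal genes, more genes were higher than lower in cerebellum. Of 11 genes of the cerebellar and hindbrain glutamatergic lineage, 6 were higher and 2 lower, among them Atoh1, the rhombic lip factor (0.69), Barhl1 of granule cell precursors (1.22), Zic1 (2.27) and Cbln1, a synaptic organizer of granule cells (1.45). The genes given with a value here all lie on the higher side. Pax6, Lhx2 and Neurod1 are counted both in this list and in the pallial lists. The list medians were 0.43 to 0.55 on the cerebellar arrays and -0.56 to 0.21 on the forebrain arrays. Of 10 tested genes listed for Cajal-Retzius cells and subplate, some of which other early-born neurons also express, 9 were higher: Lhx5 by 4.36, Ebf3 by 3.89 and Reln by 2.13. Whether the sorted GABAergic cells themselves express the genes of these 2 lists was not tested. Of the 10 GABA identity genes 8 were lower, among them Dlx1 (-2.91), Dlx5 (-2.08) and Dlx6os1 (-2.54), and Slc32a1, the vesicular GABA transporter, was higher (0.91). Of 8 astrocyte genes 4 were higher and 2 lower, 3 of 6 oligodendrocyte genes and 5 of 8 microglia genes were higher, no endothelial gene was called, 2 of 3 erythroid genes were higher, and of 7 pan-neuronal genes 3 were higher and 3 lower. What part these lists have in the higher Neurod6, Eomes and Slc17a6 (second probe) of cerebellum was not tested.

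Within the forebrain, Emx1 and Eomes were lower in olfactory bulb than in cortex and in striatum, and 2 or 3 of the 7 members were called in each pair of regions. Against cortex, 3 of 7 were lower in olfactory bulb and none higher (15.7% of all probes called, 7.36% lower): Emx1 by -1.18 ± 0.20 (SE; limma adjusted p = 0.000785), Slc17a6 on its first probe by -0.77 ± 0.12 (SE; limma adjusted p = 0.000316) and Eomes by -0.35 ± 0.10 (SE; limma adjusted p = 0.0237). For these 3 the arrays of both regions did not overlap, as for 33.9% of all probes. Emx1 stayed between -1.64 and -0.90 over 17 alternatives, all called, whereas Eomes lost the call without olfactory bulb replicate 1 or 2 or cortex replicate 1 or 3 (-0.34 to -0.30) and with median centring (-0.19). On its second probe Slc17a6 did not differ in a called way between these regions (0.02, 95% interval -0.25 to 0.28).

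Against striatum, olfactory bulb was lower for 3 of 7 members (26% of all probes called, 12.8% lower, and 43.5% without overlap): Emx1 by -0.98 ± 0.20 (SE; limma adjusted p = 0.00162), Tbr1 by -0.39 ± 0.13 (SE; limma adjusted p = 0.0347) and Eomes by -0.38 ± 0.10 (SE; limma adjusted p = 0.0106). Tbr1 and Eomes both lost the call without olfactory bulb replicate 2 (-0.38 and -0.32) or striatum replicate 2 (-0.35 and -0.34), when 1 member was left. Tbr1 also lost it without olfactory bulb replicate 3 (-0.34) or striatum replicate 3 (-0.34), and Eomes without olfactory bulb replicate 1 (-0.32). Both lost it with median centring (-0.25 for each) and in the sorted channel alone (-0.10, limma adjusted p = 0.509, for Tbr1 and -0.29 for Eomes), and Tbr1 with scaling between arrays (-0.17). For Tbr1 the sorted channel held -0.10 and the reference -0.30 of the difference. Slc17a6 on its second probe, not part of this count, was also lower in olfactory bulb than in striatum (-0.43 ± 0.13, SE, limma adjusted p = 0.0157). That call was lost without striatum replicate 2 (-0.39) or 3 (-0.42), with median centring (-0.31), with scaling between arrays (-0.10) and in the sorted channel alone (-0.19). Between cortex and striatum 2 of 7 were called (17.5% of all probes): Tbr1 was lower in cortex (-0.61 ± 0.13, SE; limma adjusted p = 0.00469) and Slc17a6 on its first probe was higher there (0.63 ± 0.12, SE; limma adjusted p = 0.00182), while its second probe was lower (-0.45 ± 0.13, SE; limma adjusted p = 0.0195). The arrays did not overlap in any of these 3 comparisons, as for 43.2% of all probes. The call of the second probe was lost without cortex replicate 2 or 3 or striatum replicate 2 or 3 (-0.43 to -0.36), in the sorted channel alone (-0.49, limma adjusted p = 0.112) and with scaling between arrays (-0.16, limma adjusted p = 0.541). With scaling, 5 members were called between these regions. With the probes of Slc17a6 averaged, the difference was 0.09 and not called.

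Single regions also differed from cerebellum in both directions. Olfactory bulb and cerebellum differed for 5 of 7 members (39.8% of all probes), 1 higher and 4 lower in olfactory bulb. Cortex and cerebellum differed for 6 of 7 (26.5%), 3 higher and 3 lower in cortex. Striatum and cerebellum differed for 3 of 7 (37.2%), 1 higher and 2 lower in striatum. Neurod6 was lower than in cerebellum by -1.20, -0.97 and -1.22 in olfactory bulb, cortex and striatum, and Eomes by -1.01, -0.65 and -0.63, with no overlap in any pair (48.5, 43.8 and 51.6% of all probes had none). Emx1 differed from cerebellum in olfactory bulb (-1.19 ± 0.20, SE; limma adjusted p = 0.000156); the intervals for cortex (-0.44 to 0.41) and striatum (-0.64 to 0.21) include 0. Slc17a6 on its second probe was lower than in cerebellum by -1.08, -1.1 and -0.65 in olfactory bulb, cortex and striatum. Slc17a7 was called higher in olfactory bulb (0.58) and cortex (0.77), and Fezf2 in cortex (0.47) and striatum (0.42). Slc17a6 on its first probe was called higher in cortex (0.42). Each of these higher calls was lost without cerebellum replicate 2. Without that array, cortex and cerebellum differed for 3 members in place of 6. Without olfactory bulb replicate 1, olfactory bulb and cerebellum differed for 3 in place of 5.

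The order of the region means thus differed by gene. Slc17a6 ran on its first probe from olfactory bulb (-1.47) through striatum (-1.33) and cerebellum (-1.12), with no call between neighbours, to cortex (-0.70). On its second probe cortex (-3.60) and olfactory bulb (-3.58) did not differ by a call and lay below striatum (-3.15) and cerebellum (-2.50). With scaling between arrays neither differed from striatum by a call (-0.16 and -0.10). The same held in the sorted channel alone (-0.49 and -0.19) and without striatum replicate 2 (-0.41 and -0.39) or 3 (-0.43 and -0.42). Neurod6 ran from striatum (-2.99), olfactory bulb (-2.97) and cortex (-2.74), no 2 of which differed by a call, to cerebellum (-1.77). Eomes ran from olfactory bulb (-0.73) to cortex (-0.37) and striatum (-0.35), which did not differ by a call, to cerebellum (0.28). Emx1 had olfactory bulb (-1.28) below striatum (-0.30), cortex (-0.10) and cerebellum (-0.09), and no pair of these last 3 was called. Tbr1 ran from cortex (-2.76) through olfactory bulb (-2.55) and cerebellum (-2.38) to striatum (-2.15), with no call between neighbours. Fezf2 ran from cerebellum (-3.08) and olfactory bulb (-2.91) to striatum (-2.66) and cortex (-2.61), again with no call between neighbours. For Slc17a7 the means were -3.53 in cerebellum, -3.34 in striatum, -2.96 in olfactory bulb and -2.76 in cortex; no order is given, because the sorted signal was well above background on only 1 of 3 arrays in each of the last 2.

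Genes with a like pattern were sought for the 3 members that spanned at least 1 between region means, among 821 genes that did so too, by Pearson's r over the 12 regional arrays; these arrays share 1 reference and fall into 4 regions, so r follows mainly 4 means. For Neurod6 they were Syt4, a synaptotagmin (r = 0.987), Ephb6 (r = 0.962) and Bhlhe22 (r = 0.962). For Emx1 they were Scarf1 (r = 0.946), Ccdc184 (r = 0.939) and Slc22a8 (r = 0.938), and for Eomes Serpinb8 (r = 0.972), Serpinb1b (r = 0.970) and Kit, a receptor tyrosine kinase (r = 0.963). Syt4 lay at -2.83, -2.74, -2.88 and -1.86 in olfactory bulb, cortex, striatum and cerebellum, close to the Neurod6 means.

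Cells sorted from undissected brain were set against the mean of the 4 regions, with scan day and group inseparable. By the brighter probes 3 members were higher and 1 lower, 4 of 7 in all, where 62.7% of all probes were called. Slc17a7 was higher (0.69 ± 0.16, SE; limma adjusted p = 0.000906), as were Eomes (0.24 ± 0.07, SE; limma adjusted p = 0.00652) and Slc17a6 on its first probe (0.22 ± 0.09, SE; limma adjusted p = 0.0312), and Neurod6 was lower (-0.33 ± 0.10, SE; limma adjusted p = 0.00479). The arrays of both sides overlapped for every member, while they did not for 30.7% of all probes. Slc17a6 on its first probe lost the call without whole-brain replicate 1 (0.13) or 3 (0.22) or striatum replicate 1 (0.20), and in the sorted channel alone (0.09). Neurod6 lost it with median centring (-0.11) and in the sorted channel alone (-0.36), and turned to 0.43 with scaling between arrays. Set against single regions, Neurod6 was called lower only than in cerebellum (-1.18). It was 0.01, -0.21 and 0.04 against olfactory bulb, cortex and striatum. Eomes was higher than in olfactory bulb, cortex and striatum (0.68, 0.32 and 0.3) but lower than in cerebellum (-0.33). Slc17a7 was higher than in striatum (0.88) and cerebellum (1.07) but was not called against olfactory bulb (0.49) or cortex (0.3). Its sorted signal was well above background on only 1 of 3 arrays both in olfactory bulb and in cortex. The arrays of whole brain had a wider spread of log2 ratios over all probes (SD 0.86 to 0.95) than those of the regions (0.59 to 0.79).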

How the data were processed

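Sorted-cell cDNA and reference cDNA were measured on 2-colour Agilent mouse arrays, and files were deposited for 16 arrays. Per the file headers, the deposited intensity columns hold mean spot signal and median local background, read by the scanner software (Agilent Feature Extraction 8.1.1.1) and not corrected. Per the file headers, the deposited log10 ratio of Cy5 over Cy3 was background-subtracted, spatially detrended and dye-normalized by that software; the deposited series values equal it within 0.005. The labels of the reference name Cy3 but call it red; direction follows the dye names. Per the file headers, the deposited background and saturation marks (another kind of column, 0 or 1) show which spots were well above background.

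Here, intensities were corrected by normexp (offset 50), log2 ratios were normalized by loess within arrays with limma 3.58.1 in R 4.3.3, and spots of a probe were averaged. Control spots and spots marked as outliers were left out, as was 1 line with a missing field in whole-brain replicate 3. Probes were kept if well above background on at least 3 arrays in the sorted channel or 8 in the reference. A fit of 5 group means to 16 arrays (lmFit, eBayes) gave every p, adjusted by Benjamini-Hochberg over 39227 probes. On simulated data for the comparison of cerebellum with forebrain (36657 probes), 97.5 to 100% of simulated effects of size 1 and 72.5 to 80% of size 0.5 were recovered, and 6.74% of calls were false. Each simulated effect was placed on 40 probes, and all other probes had no regional difference. In the measured data 40.5% of probes were called in this comparison, so the simulated rates do not describe the reported calls. The brightest probe stands for a gene in counts. Probes were named through RefSeq: 21445 matched on an accession, 5431 on the current symbol and 4636 on an older synonym, while 9662 kept the name printed on the array. For each member spanning at least 1 between region means, the 3 genes of highest correlation were named; any measured gene of the marker lists could be named. The members and lists were chosen with earlier results of these data known. The labels call the replicates biological, without naming animals. The number of arrays limits the precision. Tables were handled with pandas 2.3.3 and the data.table package (version 1.17.8) and figures drawn with matplotlib 3.10.9 in Python 3.11.15. Some genes of the lists are counted in them but not reported here by name.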

Additional observations from a re-analysis of the deposited data

Results flagged for a closer look

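Slc17a7 on whole-brain replicate 1 (-2.00) stood apart from the other 3 arrays of its group (-2.64 to -2.57): its gap to the nearest array was 0.899 of the group's range, above Dixon's 95% limit for 4 arrays. About 1 group in 20 is expected to pass this limit by chance, and 7 of the 8 probes had 4 whole-brain arrays to examine. The means of the 4 regions differed by limma's F test for every probe, with spans of 0.77 for Slc17a7, 0.77 for the first and 1.1 for the second Slc17a6 probe, 0.61 for Tbr1, 1.22 for Neurod6, 1.19 for Emx1, 1.01 for Eomes and 0.47 for Fezf2; 55.9% of all probes passed the same test.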

How the results depend on the processing

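Against the reference, the lower calls of Slc17a7, Slc17a6, Tbr1, Neurod6 and Fezf2 in all 5 groups kept their direction and call under every alternative run; with median centring in place of loess, Eomes in whole brain turned from -0.05 to 0.48. Scaling between arrays turned Fezf2 to -0.32 between olfactory bulb and cerebellum and -0.04 between cortex and cerebellum. It turned Fezf2 to -0.37, Slc17a7 to -0.78 and Tbr1 to -0.41 between striatum and cerebellum. For cerebellum against forebrain it turned Fezf2 to 0.25 and Slc17a7 to 0.18. For whole brain against regions it turned Tbr1, Neurod6 and Fezf2 to 0.54, 0.43 and 0.61. It called 5 members between cortex and striatum, 3 between cortex and cerebellum and 6 between striatum and cerebellum. The sorted channel alone turned the first Slc17a6 probe to 0.09 between olfactory bulb and cerebellum, called 1 member between olfactory bulb and striatum (median centring also 1) and 3 for cerebellum against forebrain (offset 16 also 3), and called 9303 probes between olfactory bulb and cortex and 8679 between striatum and cerebellum. The mean of a gene's probes turned Slc17a6 to -0.34 between cortex and cerebellum, called 1 member between cortex and striatum, and called 3913 genes between olfactory bulb and cortex, 6742 between olfactory bulb and striatum, 4388 between cortex and striatum and 6907 between cortex and cerebellum. Leaving out 1 array gave 3672 to 6154 called probes between olfactory bulb and cortex and 3568 to 6173 between cortex and striatum, and member counts of 1 to 3 between olfactory bulb and striatum, 3 to 5 between olfactory bulb and cerebellum, 3 to 5 between cortex and cerebellum, and 2 to 5 for cerebellum against forebrain. The causes were not tested. The replicate numbers were not taken as pairing the arrays, since the labels do not say that a number marks shared animals. Of same-numbered pairs of arrays, 5 of 18 correlated above 0.1 (mean r = 0.038), against 5 of 36 pairs of unlike number (mean r = -0.019). These correlations are too weak to settle whether arrays are paired. As a hint from the data, 8 of 12 regional arrays correlated best with an array of their own number. With the replicate number as a block, 94 of 96 values kept their call; Tbr1 between cortex and cerebellum lost it (-0.38, adjusted p = 0.0527) and Slc17a7 between cortex and striatum gained it (0.58, adjusted p = 0.0308) in limma's test. The other Slc17a6 probe, added after the data were seen, gave 2 to 7 called members by comparison, 6 for cerebellum against forebrain. The scanner's own log ratio moved the median of all whole-brain probes from 0.038 to 0.146. A block for slide or scan day was not run, because each slide holds 1 array and each group 1 scan day. Signal over background limits Slc17a7 most: its sorted signal never exceeded 2.91 times background.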

Other observations

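Among the pallial progenitor factors, Insm1, a zinc finger factor of neuronal and intermediate progenitors, was high in sorted cells of cerebellum (2.40 ± 0.13, SD, n = 3) and striatum (1.83 ± 0.10, SD, n = 3), lower in olfactory bulb (0.87 ± 0.05, SD, n = 3) and cortex (0.90 ± 0.20, SD, n = 3), and below the reference in whole brain (-0.38 ± 0.10, SD, n = 4), where median centring turned it to 0.16. It was higher in cerebellum than in the forebrain mean by 1.20 ± 0.08 (SE; limma adjusted p = 2.39e-09). Neurog2, a proneural factor, was higher there by 1.03 ± 0.08 (SE; limma adjusted p = 6.9e-09). Emx2, the relative of Emx1, was also higher (0.83 ± 0.12, SE; limma adjusted p = 2.99e-05), as was Gli3, a transcription factor of hedgehog signalling (0.78 ± 0.09, SE; limma adjusted p = 2.06e-06). Of the 8 tested factors of this list, these 4 were higher in cerebellum than in the forebrain mean, 1 was lower and 3 were not called. In this comparison 40.5% of all probes were called. Pax6, with 3 probes, was above the reference on each of them in all 5 groups (0.17 to 1.57).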
